A study of Mus musculus with 18 samples.

Results

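The 3 model libraries numbered 4 to 6 were set against the 3 control libraries of the same numbers, 6 of the 18 libraries of an RNA-seq series on mouse thalamic haemorrhage. Model animals were wild-type mice given a treatment written Coll IV in the labels, which do not spell it out, and control animals were wild-type mice given saline. The remaining group, given Coll IV with remodelin, an inhibitor of the RNA acetyltransferase NAT10, entered only alternative fits. The tissue of all 18 libraries is labelled thalamus, and age, sex, strain, the interval since the injury and any pooling of animals were not given in the sources used here. Libraries 4 to 6 were chosen by measured values and not by a label: genes of cortex were high in them and genes of thalamic neurons low. The levels of Tcf7l2 and Slc17a7 are given below as a description, without a test. Other genes of cortex and thalamus were tested like all genes, and their p-values may not be independent of this choice. All genes that passed a filter on low counts were tested, 17731 of the 50559 in the deposited table.

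The thalamus relays signals to the cortex, and its excitatory neurons carry the transcription factor Tcf7l2 and the vesicular glutamate transporter Slc17a6, whereas cortical and hippocampal pyramidal neurons carry Slc17a7. It lies above the hypothalamus, whose neurons make peptide hormones such as oxytocin, vasopressin and thyrotropin-releasing hormone, and beside the third ventricle, which is lined by ciliated ependymal cells and holds choroid plexus, the tissue that secretes cerebrospinal fluid. A thalamic haemorrhage exposes the tissue to blood, to which microglia, astrocytes and vessels are known to respond with inflammatory, complement and iron-handling genes.

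Levels of Tcf7l2 and Slc17a7 in the 6 libraries went against the thalamus label. Scaled over all 18 libraries, Tcf7l2 was at 4.79, 8.02 and 10.5 CPM (counts scaled to library size; lowest, median and highest) in model libraries 4 to 6 and at 3.82, 4.68 and 5.05 CPM in control libraries 4 to 6, against 53.6, 72.6 and 144 CPM in model libraries 1 to 3 and 98.6, 101 and 102 CPM in control libraries 1 to 3. Slc17a7 was at 1091, 1186 and 1255 CPM in model libraries 4 to 6 and at 1585, 1626 and 1673 CPM in control libraries 4 to 6, and every library numbered 1 to 3 of these groups was below both. Other region genes did not all part the ranges. Neurod6, of cortical and hippocampal neurons, had medians of 41.0 CPM in model libraries 4 to 6 and 40.8 CPM in model libraries 1 to 3, and Prkcd, of thalamic neurons, spanned 13.4 to 41.3 CPM in model libraries 4 to 6 and 20.2 to 45.9 CPM in model libraries 1 to 3. Among the 6 libraries, totals were 29429827 to 36361681 counts in model and 30538564 to 56878946 in control. Mitochondrially encoded genes took 10.6 ± 1.33% of counts in model and 8.75 ± 2.10% in control libraries (SD, n = 3 each; two-sided exact permutation p = 0.3, where 0.1 is the smallest possible). Control 6, at 11.2%, stood above controls 4 and 5, at 7.39 and 7.70%. Haemoglobin genes took 0.0158 ± 0.00169% and 0.0142 ± 0.00218% (exact permutation p = 0.6). The first principal component of the 6 libraries held 41.3% of the variance and placed all 3 model libraries on one side and all 3 control libraries on the other.

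In Coll IV libraries, against saline libraries, the called genes of largest change were genes known from the hypothalamus and the choroid plexus, such as Oxt, Ttr and Irs4, and all of these were higher. Some genes of ependymal and GABAergic cells, such as Foxj1 and Slc32a1, and of ventral forebrain neurons, such as Six3, were also called higher. The pyramidal neuron genes Nptx1 and Neurod2 were called lower, by less than 1 unit on the log2 scale. In bulk tissue, more cells of a type and more RNA per cell cannot be told apart. In total 259 genes, 1.46% of those tested, were called at an adjusted p under 0.05 by edgeR's quasi-likelihood test with Benjamini-Hochberg adjustment over all genes. Of these 175 (0.987%) were higher and 84 (0.474%) lower in model libraries. The higher genes had a median log2 fold change of 1.52, over 1 in 127 of the 175, and a median level of 5.21 CPM in model libraries. The lower genes had a median log2 fold change of -0.52, under -1 in 4 of the 84, and a median level of 83.7 CPM in control libraries. For all 259 the ranges of the groups did not overlap, which held for 19.7% of all genes tested (9.73% higher and 9.96% lower). At an unadjusted p under 0.05, 7.98% of all genes were higher and 7.99% lower.

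**Figure D1:**
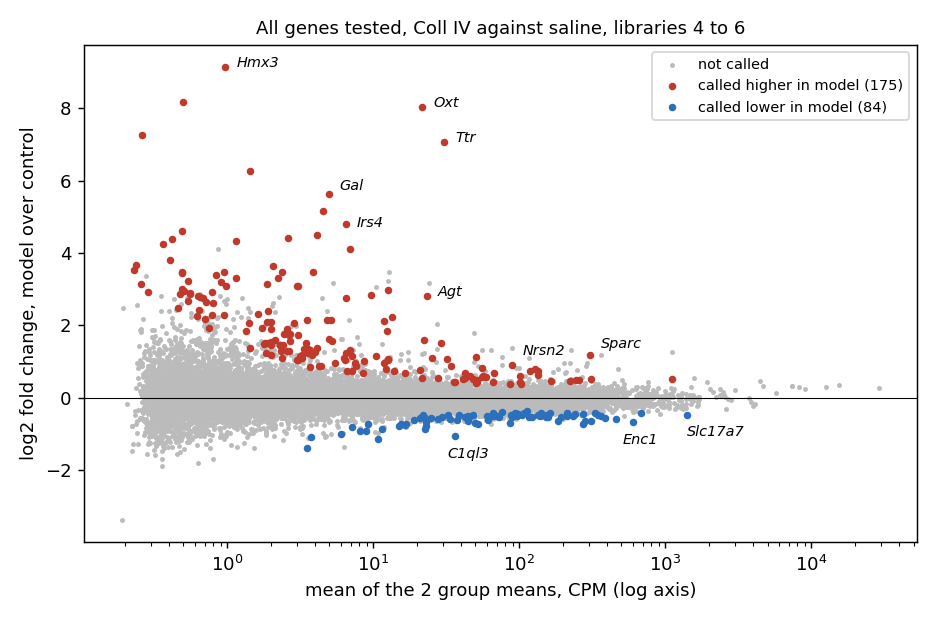
Each point is a gene, with its mean level in CPM (log axis) against its log2 fold change of model over control in libraries 4 to 6. Among genes counted in control libraries, those called higher reach a log2 fold change of 8.04 (Oxt), whereas the 84 called lower lie between -0.36 and -1.39. The fitted values of Hmx3 and of the 2 other genes with no count in control depend on edgeR's prior count.

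The count of calls rested on the libraries that entered the fit. It was 165, 163 and 189 without model 4, 5 and 6, and 78, 47 and 714 without control 4, 5 and 6. A fit that shared its estimate of the spread with the other libraries called 5 genes with the 12 model and control libraries and 0 with all 18, where 1938 genes had an unadjusted p under 0.05. The 5 were Gstm6, Cckar, which had no count in control, and Prlr, Gal and Kcnj5, which earlier results had put forward. Irs4, Oxt and Ttr had edgeR adjusted p of 0.0583, 0.0823 and 0.138 in the fit of 12. All 259 genes kept their sign in each of these fits. That could hardly be otherwise, since their groups did not overlap and each fit compared libraries of the same 6. Without each of the 6 libraries in turn, 35 of the higher genes and 1 of the lower, Nuak1, were called every time. The higher ones include Irs4, Calcr, Gabrq, Sytl4, Magel2, Hmx3, Asb4, Nrsn2, Slc10a4, Gstm6, Nkx2-1, Cckar, Chat, Slc18a3 and Sparc, and the calls of the other genes named below, apart from Gal and Prlr, were each lost without at least 1 library.

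Of 17 neuropeptide genes of the hypothalamus, 14 were tested and 13 had a positive log2 fold change, with a median of 1.71 against 0.00 over all genes tested, of which 50.6% were positive. Some of these, such as Oxt, Gal and Avp, passed the filter through their level in model libraries. In the fit of 12 libraries, whose filter all 17 passed, the median for libraries 4 to 6 was 0.74. Called higher were 5 (Oxt, Gal, Avp, Trh and Ghrh) and called lower 0 of the 14, against 0.987% and 0.474% of all genes tested. Of the 5, Gal was put forward by earlier results and is a description. Pmch and Hcrt, peptides of the lateral hypothalamus, and Agrp, of the arcuate nucleus, were too low to be tested. The summed level of the list was 668 to 833 CPM in model and 537 to 664 CPM in control libraries.

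Oxt, which encodes oxytocin, was at 54.8, 50.9 and 23.1 CPM in model libraries 4, 5 and 6 and at 0.0321, 0.139 and 0.333 CPM in control libraries 4, 5 and 6. Every model library thus lay far above every control library, with a log2 fold change of 8.04 ± 0.61 (SE, edgeR adjusted p = 0.00543). Gal, which encodes the peptide galanin, was at 11.8, 8.83 and 8.57 CPM in model and 0.0641, 0.347 and 0.0665 CPM in control libraries. It is one of 3 genes, with Prlr and Kcnj5, that earlier results on these libraries had put forward, so its log2 fold change of 5.63 ± 0.39 is given as a description. Avp, the vasopressin gene, was at 15.6, 7.40 and 3.30 CPM in model and 0.192, 0.243 and 0.299 CPM in control libraries (log2 fold change 5.16 ± 0.71, edgeR adjusted p = 0.0304). The model values of Avp spread widely and its lowest was still above all controls. Trh, the thyrotropin-releasing hormone gene, had 29.3, 22.7 and 15.002 CPM in model and 2.85, 3.62 and 1.76 CPM in control libraries (2.99 ± 0.31, edgeR adjusted p = 0.00517). Ghrh, for growth hormone-releasing hormone, was the lowest of the 5, at 0.728 to 1.05 CPM against 0.0665 to 0.208 CPM (edgeR adjusted p = 0.0199). Vip, a peptide also made by cortical interneurons, was the single tested member with a negative value, at 40.4, 30.7 and 39.1 CPM in model and 66.8, 58.3 and 43.5 CPM in control libraries (log2 fold change -0.61 ± 0.15, edgeR adjusted p = 0.0821). The calls were lost without control 5 for Oxt (adjusted p = 0.106), without control 4 for Trh (0.0576) without control 4, 5 or 6 or model 5 for Avp (up to 0.249), and without control 4 or 5 or model 5 or 6 for Ghrh (up to 0.0830).

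The genes of lowest p included several that are known for their expression in the hypothalamus. Irs4, an adaptor of insulin and growth factor receptors, had the lowest p of all genes, at 15.3, 13.7 and 8.71 CPM in model and 0.449, 0.555 and 0.266 CPM in control libraries (log2 fold change 4.82 ± 0.29, edgeR adjusted p = 2.16e-05). Calcr, the calcitonin receptor, was at 3.30, 3.33 and 1.90 CPM in model and at 0, 0.0347 and 0.0665 CPM in control libraries (6.27 ± 0.53, adjusted p = 0.000154). Its control libraries held 4 counts in all, so the fitted fold depends on edgeR's prior count. Gabrq, the theta subunit of the GABA-A receptor, rose by 3.47 ± 0.29 on the log2 scale (adjusted p = 0.000154), and Magel2, an imprinted gene of the Prader-Willi region, by 3.09 ± 0.29 (adjusted p = 0.000315). Sytl4, which encodes granuphilin of secretory granules, rose by 4.41 ± 0.39 (adjusted p = 0.000274), and Asb4, a substrate adaptor of ubiquitin ligases, by 3.15 ± 0.32 (adjusted p = 0.000639). Gpr101, an orphan receptor, had 7.00, 12.3 and 4.29 CPM in model and 0.128, 0.277 and 0.665 CPM in control libraries (adjusted p = 0.0128).

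Called higher were also transcription factors that specify hypothalamic and ventral forebrain neurons. Hmx3, a homeobox gene, was at 2.24, 1.96 and 1.62 CPM in model libraries and had no count in the 3 control libraries, which makes it at least 77.8-fold higher when 3 counts over the control group are taken as the floor (edgeR adjusted p = 0.000322). Cckar, the cholecystokinin A receptor, and Uncx, another homeobox gene, also had no count in control libraries and were at least 40.5-fold and 21.1-fold higher (adjusted p = 0.0074 and 0.012). Nkx2-1, the homeobox gene of the ventral hypothalamus and the medial ganglionic eminence, was at 4.14, 5.26 and 3.58 CPM in model and 0.256, 0.173 and 0.832 CPM in control libraries (log2 fold change 3.47 ± 0.45, edgeR adjusted p = 0.00517). Otp, which neurons making oxytocin and vasopressin need, was at 3.53, 1.90 and 1.12 CPM against 0.0641, 0.0347 and 0.266 CPM in control libraries (4.33 ± 0.65, adjusted p = 0.0120). Cckar, Uncx, Nkx2-1 and Otp were named after their values were seen. The calls of Gpr101 and Otp were lost without control 4 and without control 5.

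**Figure D2:**
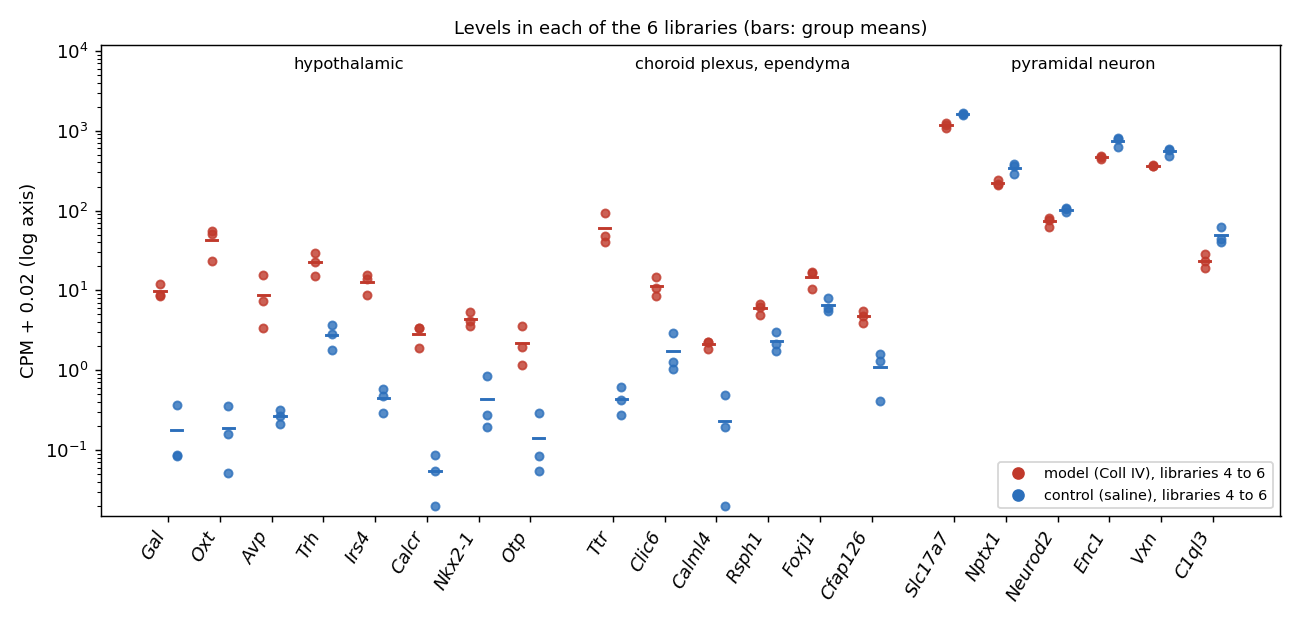
Level of 20 genes in each of the 6 libraries, in CPM with 0.02 added, on a log axis. Model libraries (red) lie above control libraries (blue) for hypothalamic genes such as Oxt and for choroid plexus and ependymal genes such as Ttr, and below them for pyramidal neuron genes such as Enc1.

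Of 24 choroid plexus genes 19 were tested and 16 had a positive log2 fold change, with a median of 0.74. Called higher were 4 and lower 0, against 0.987% and 0.474% of all genes tested. In the fit of 12 libraries, whose filter all 24 passed, the median for libraries 4 to 6 was 1.01. Ttr, for transthyretin, the main secreted protein of the choroid plexus, was at 92.9, 40.5 and 48.3 CPM in model and 0.256, 0.589 and 0.399 CPM in control libraries. Its log2 fold change was 7.07 ± 0.50 (SE, edgeR adjusted p = 0.00517), and the groups were far apart although the highest model value was more than 2 times the lowest. Clic6, a chloride channel protein, had 10.6, 14.8 and 8.36 CPM in model and 1.03, 1.25 and 2.86 CPM in control libraries (2.75 ± 0.37, adjusted p = 0.0128). Calml4, a calmodulin-like protein, had 2.24, 2.20 and 1.83 CPM in model and 0, 0.173 and 0.466 CPM in control libraries (3.32 ± 0.60, adjusted p = 0.0272). Prlr, the prolactin receptor, which both choroid plexus and hypothalamic neurons express, was at 4.59, 5.05 and 2.46 CPM in model and 0.513, 0.381 and 0.333 CPM in control libraries. It is among the 4 called, but was put forward from earlier results, like Gal, and its log2 fold change of 3.31 ± 0.33 is a description. Other choroid plexus genes were not called: Kl, the klotho gene, had 4.59, 3.03 and 1.97 CPM in model and 1.41, 1.63 and 1.93 CPM in control libraries (adjusted p = 0.136), and the water channel Aqp1 had overlapping values (log2 fold change 0.24 ± 0.56, adjusted p = 0.880). The summed level of the list was 314 to 415 CPM in model and 281 to 316 CPM in control libraries. The calls of Ttr (adjusted p = 0.0754) and Clic6 (0.103) were lost without control 5, and that of Calml4 without control 5, model 4 or model 5 (up to 0.170).

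All 19 tested genes of ependyma and motile cilia, of 20 on the list, had a positive log2 fold change, with a median of 1.51. Called higher were 4 and called lower 0, against 0.987% and 0.474% of all genes tested. In 14 the lowest model library lay above the highest control library, against 9.73% of all genes tested. Foxj1, the master regulator of motile cilia, was at 10.3, 16.3 and 16.8 CPM in model and 5.45, 5.98 and 8.05 CPM in control libraries (log2 fold change 1.16 ± 0.20, edgeR adjusted p = 0.0212). Rsph1, a radial spoke protein, was at 4.93, 6.66 and 6.11 CPM against 1.70, 2.13 and 2.99 CPM in control libraries (1.38 ± 0.22, adjusted p = 0.0128). The groups of both genes were separate. Cfap126, a cilia and flagella protein, rose by 2.08 ± 0.37 on the log2 scale (adjusted p = 0.0236) and Mia by 1.86 ± 0.39 (adjusted p = 0.0379). Ccdc153, a marker of ependymal cells, had 5.74, 7.996 and 10.5 CPM in model and 0.128, 2.20 and 2.13 CPM in control libraries, and was not called (adjusted p = 0.207). The call of Rsph1 was lost without control 5 (adjusted p = 0.0713), that of Cfap126 without model 5 (0.0547), that of Foxj1 without control 4 or 5 or model 5 (up to 0.119), and that of Mia without any library but control 6 (up to 0.124).

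All 13 genes of striatal medium spiny neurons had a positive log2 fold change, with a median of 0.97. Called higher were 2, against 0.987% of all genes tested: Six3 and Isl1, which encode homeodomain transcription factors of ventral forebrain neurons. Six3 was at 14.1, 20.7 and 23.8 CPM in model and 4.17, 4.39 and 7.79 CPM in control libraries (log2 fold change 1.85 ± 0.27, edgeR adjusted p = 0.0169). Isl1 was at 3.58, 7.97 and 5.62 CPM against 0.833, 0.953 and 2.20 CPM in control libraries (2.14 ± 0.40, adjusted p = 0.0350). The dopamine receptor gene Drd2 was led by 1 library, with 20.9, 25.9 and 69.9 CPM in model libraries 4, 5 and 6 and 14.8, 12.4 and 19.0 CPM in control libraries (adjusted p = 0.338). Adora2a, the adenosine receptor of the same neurons, had 48.4, 55.8 and 133 CPM against 27.4, 25.9 and 41.2 CPM (adjusted p = 0.292). In both, model 6 stood well above model 4 and model 5. The summed level of the list was 1336 to 3074 CPM in model and 827 to 1239 CPM in control libraries.

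Of 15 genes of GABAergic interneurons 12 had a positive log2 fold change (median 0.30). Called higher were 3 and lower 0, against 0.987% and 0.474% of all genes tested. At an unadjusted p under 0.05, 8 were higher and 2 lower, against 7.98% and 7.99% of all genes. In 6 every model library lay above every control library and in 2 below, against 9.73% and 9.96% of all genes. Slc32a1, the vesicular GABA transporter, had 109, 141 and 117 CPM in model and 79.5, 81.8 and 81.1 CPM in control libraries (log2 fold change 0.59 ± 0.10, edgeR adjusted p = 0.0163). Gad2, a GABA-synthesising enzyme, had 143, 202 and 146 CPM against 102, 109 and 103 CPM (0.64 ± 0.13, adjusted p = 0.0310), and its partner Gad1 had 360, 448 and 367 CPM against 313, 329 and 264 CPM without a call (adjusted p = 0.126). Dlx5, a transcription factor of these neurons, rose by 1.03 ± 0.18 on the log2 scale (adjusted p = 0.0157). The calls of Slc32a1, Gad2 and Dlx5 were lost without control 4 and without control 5, Six3 also without model 5, and Isl1 also without model 5 and without model 6, with adjusted p up to 0.184.

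Among the called genes were also several of the cholinergic synapse, which were picked out after their values were seen and form no list. Chat, which makes acetylcholine, was at 3.08, 4.07 and 5.09 CPM in model and 1.22, 1.21 and 1.20 CPM in control libraries (log2 fold change 1.75 ± 0.24, edgeR adjusted p = 0.00517). Slc18a3, which loads it into vesicles, was at 3.36, 4.28 and 3.65 CPM against 1.03, 0.971 and 1.33 CPM in control libraries (1.77 ± 0.23, adjusted p = 0.00468). In both genes the 3 control libraries lay close together and below every model library. Slc10a4, a vesicle protein of cholinergic and monoaminergic neurons that was named by its p, rose by 2.14 ± 0.24 on the log2 scale (adjusted p = 0.00125). Slc5a7, the choline transporter, rose by 1.33 ± 0.24 (adjusted p = 0.0193), and Lhx8, a transcription factor of basal forebrain cholinergic neurons, by 3.09 ± 0.46 (adjusted p = 0.0157). The calls of Slc5a7 and Lhx8 were lost without control 4 and without control 5, with adjusted p up to 0.132, and for Slc5a7 also without model 5.

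Genes of homeostatic and of reactive astrocytes were counted apart. Of 18 genes of homeostatic astrocytes 16 had a positive log2 fold change, with a median of 0.16. The 3 called higher compare with 0.987% of all genes tested. Agt, for angiotensinogen, which astrocytes of the diencephalon express more than those of the cortex, was at 52.6, 46.6 and 22.9 CPM in model and 6.09, 4.54 and 6.79 CPM in control libraries (log2 fold change 2.83 ± 0.34, edgeR adjusted p = 0.0203). Slc6a11, a GABA transporter, had 165, 205 and 133 CPM against 92.1, 104 and 104 CPM in control libraries (0.75 ± 0.14, adjusted p = 0.0267). Both genes had separate groups. Slc4a4, a bicarbonate transporter, rose by 0.44 ± 0.09 on the log2 scale (adjusted p = 0.0362). Sparc, a secreted matrix protein of astrocytes and endothelium that was named after its values were seen, had 459, 496 and 316 CPM in model and 177, 188 and 198 CPM in control libraries (1.17 ± 0.15, adjusted p = 0.00483). Of 21 tested genes of reactive astrocytes 0 were called by edgeR, against 1.46% of all genes, and the median was 0.00. At an unadjusted p under 0.05, 4 were higher and 1 lower, against 7.98% and 7.99% of all genes. Gfap, the intermediate filament that reactive astrocytes raise, had 194, 150 and 227 CPM in model and 124, 165 and 110 CPM in control libraries, which overlapped (log2 fold change 0.52 ± 0.18, adjusted p = 0.208). The calls of Agt, Slc6a11 and Slc4a4 were lost without control 4 and without control 5, those of Slc6a11 and Slc4a4 also without model 4 and that of Slc4a4 without model 5, with adjusted p up to 0.171.

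**Figure D3:**
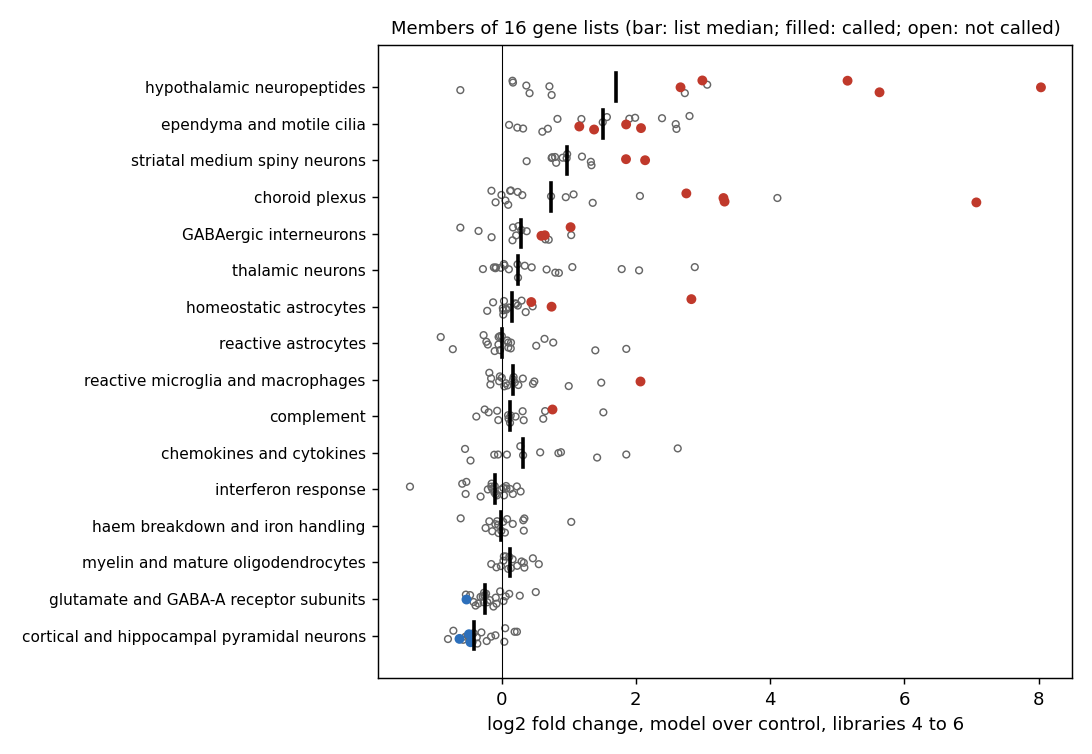
Log2 fold change of model over control in libraries 4 to 6 for each tested member of 16 gene lists, with called members filled, the others open, and a bar at each list's median. The hypothalamic list has its median at 1.71 (0.74 over all 17 members in the fit of 12 libraries) and the cortical and hippocampal list at -0.42, while the reactive astrocyte and iron lists have medians of 0.00.

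Of 21 genes of pyramidal neurons of cortex and hippocampus 4 had a positive log2 fold change, with a median of -0.42. Called higher were 0 and lower 3, against 0.987% and 0.474% of all genes tested. In 10 of the 21 every model library lay below every control library, against 9.96% of all genes tested. Slc17a7 is one of the 3, and since its level singled out these libraries its values of 1257, 1189 and 1095 CPM in model and 1584, 1668 and 1628 CPM in control libraries are a description. Nptx1, a synaptic pentraxin that gathers AMPA receptors, was at 207, 239 and 218 CPM in model and 359, 379 and 287 CPM in control libraries (log2 fold change -0.63 ± 0.11, edgeR adjusted p = 0.0193). Neurod2, a transcription factor of cortical neurons, was at 76.3, 62.5 and 80.9 CPM against 103, 107 and 96.8 CPM in control libraries (-0.48 ± 0.10, adjusted p = 0.0414). Tbr1, a transcription factor of deep-layer neurons, had a log2 fold change of -0.43 ± 0.12 and was not called (adjusted p = 0.0906).

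Nuak1, an AMPK-related kinase known from axon branching in cortical neurons, was at 38.9, 36.1 and 41.7 CPM in model and 68.3, 68.5 and 56.9 CPM in control libraries (log2 fold change -0.73 ± 0.10, edgeR adjusted p = 0.00531), the single lower gene called without each library. Enc1, an actin-binding protein of cortical neurons, was at 468, 446 and 476 CPM against 784, 807 and 628 CPM in control libraries (-0.68 ± 0.10, adjusted p = 0.0103). The model libraries lay close together, and control 6 was the lowest of the controls in both genes. Vxn, a regulator of neuronal differentiation, fell by 0.59 on the log2 scale (SE 0.10, adjusted p = 0.0128), and Ndst3, which sulfates heparan chains and averaged 11.1 CPM in model and 19.1 CPM in control libraries, by 0.78 (SE 0.13, adjusted p = 0.0128). Pgm2l1, which makes glucose bisphosphate, fell by 0.72 (SE 0.12, adjusted p = 0.0128) and the zinc importer Slc39a10 by 0.63 (SE 0.11, adjusted p = 0.0169). Cacna2d1, an auxiliary subunit of calcium channels, fell to 129, 121 and 116 CPM in model libraries, against 169, 168 and 167 CPM in control libraries (-0.46 ± 0.08, adjusted p = 0.0212). C1ql3, a secreted synaptic organiser, was at 23.3, 28.3 and 19.1 CPM against 40.3, 62.5 and 43.5 CPM (-1.05 ± 0.19, adjusted p = 0.0297), and Smoc2, a matrix protein, at 8.93, 6.21 and 4.99 CPM against 11.3, 17.1 and 15.6 CPM (-1.13 ± 0.21, adjusted p = 0.0315). Every one of these calls but that of Nuak1 was lost without at least 1 library: that of Enc1 without control 5 (adjusted p = 0.0560), that of C1ql3 without model 4 (0.111), that of Pgm2l1 without control 5 or model 4, that of Smoc2 without control 5 or 6 or model 5 or 6, and those of Nptx1, Neurod2, Ndst3, Vxn, Slc39a10 and Cacna2d1 without control 4 and without control 5. Nptx1 and Neurod2 also lost theirs without model 4, Nptx1, Slc39a10 and Cacna2d1 without model 6, and Neurod2 and Cacna2d1 without model 5.

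Receptor and channel genes are given beside a share of 1.46% called over all genes tested. Of 24 glutamate and GABA-A receptor subunits 5 had a positive log2 fold change, with a median of -0.24, and 1 was called lower and 0 higher. In 11 of the 24 every model library lay below every control library, against 9.96% of all genes tested. Grin2a, the GluN2A subunit of NMDA receptors, was at 93.3, 96.7 and 93.4 CPM in model and 153, 133 and 123 CPM in control libraries (log2 fold change -0.53 ± 0.10, edgeR adjusted p = 0.0211). Among 20 potassium channel genes 1 was called in each direction. Kcnj6, a G protein-gated inward rectifier, was at 47.9, 54.6 and 40.8 CPM in model and 75.6, 78.2 and 66.2 CPM in control libraries (-0.62 ± 0.11, adjusted p = 0.0216). Kcnj5, of the same channel family, was at 1.23, 1.49 and 0.949 CPM in model and 0.256, 0.139 and 0.200 CPM in control libraries, a log2 difference of 2.66 ± 0.42 that is a description since earlier results had put it forward. Bdnf, the neurotrophin, was the single one of 19 immediate early genes to be called, at 13.8, 11.7 and 12.2 CPM in model and 23.0, 23.9 and 15.3 CPM in control libraries (-0.73 ± 0.16, adjusted p = 0.0481), and Fos had overlapping values (0.26 ± 0.31, adjusted p = 0.738). The calls of Grin2a and Kcnj6 were lost without control 4, control 5, model 4 or model 6, and that of Bdnf without any library but control 6.

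Of the 19 thalamic genes tested 14 had a positive log2 fold change, with a median of 0.25. By edgeR 0 were called, against 1.46% of all genes. At an unadjusted p under 0.05, 7 were higher and 1 lower, against 7.98% and 7.99% of all genes. In 7 every model library lay above every control library (9.73% of all genes), and in 0 below (9.96%). Slc17a6 had 26.9, 22.8 and 19.0 CPM in model and 16.03, 12.6 and 9.38 CPM in control libraries (0.85 ± 0.19, adjusted p = 0.0520), just outside the threshold. Tcf7l2, given as a description, had 8.04, 10.6 and 4.81 CPM in model and 4.68, 3.81 and 5.06 CPM in control libraries, with overlapping ranges. Calb2, the calretinin gene, and Zic1, a transcription factor, were led by model 5, at 134 and 83.9 CPM, with 43.2 to 50.4 and 20.7 to 27.4 CPM in the other model libraries and at most 31.7 and 15.9 CPM in control libraries.

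The lists of inflammation and bleeding were short beside a share of 1.46% called over all genes, so counts of 0 or 1 call are near that background. C4b, a complement component made by astrocytes, was at 14.7, 17.0 and 20.6 CPM in model and 9.42, 11.1 and 10.4 CPM in control libraries (log2 fold change 0.75 ± 0.14, edgeR adjusted p = 0.0262), and was the single one called of 16 tested complement genes. C3, the central complement component, had 1.06, 0.862 and 1.34 CPM against 0.192, 0.451 and 0.466 CPM in control libraries and was not called (1.52 ± 0.41, adjusted p = 0.0902). Both genes had separate groups. Apoc1, an apolipoprotein of activated phagocytes, was the single one called of 19 tested genes of reactive microglia and macrophages, at 2.46, 2.62 and 1.69 CPM in model and 0.449, 0.381 and 0.832 CPM in control libraries (2.07 ± 0.35, adjusted p = 0.0157). Lgals3, for galectin-3, had 1.40, 1.34 and 1.97 CPM against 0.256, 0.763 and 0.599 CPM in control libraries (adjusted p = 0.0842). Serpine2, an inhibitor of thrombin made by glia, had 280, 290 and 283 CPM in model and 194, 193 and 224 CPM in control libraries (0.48 ± 0.09, adjusted p = 0.0244), the single one called of 14 tested genes of coagulation and fibrinolysis. The calls of C4b, Apoc1 and Serpine2 were lost without control 4 and without control 5, and those of C4b and Serpine2 also without model 5, C4b without model 6 and Serpine2 without model 4, with adjusted p up to 0.132. Scaled over all 18 libraries, saline libraries 1 to 3 were above model libraries 4 to 6 in C4b, C3, Apoc1 and Serpine2. They held 35.1, 48.9 and 37.6 CPM of C4b, 2.74, 2.71 and 3.09 CPM of C3, and 4.73, 9.51 and 6.11 CPM of Apoc1. Values of Lgals3 overlapped between these libraries.

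Hmox1, the haem-degrading enzyme, had 14.7, 7.43 and 26.7 CPM in model and 7.92, 9.74 and 5.79 CPM in control libraries (log2 fold change 1.04 ± 0.49, edgeR adjusted p = 0.381). Model 6 and model 4 were above all controls and model 5 was not. Ccl12, a monocyte-attracting chemokine, followed the same order, with 3.05, 0.535 and 7.03 CPM in model and 0.449, 0.728 and 0.466 CPM in control libraries (adjusted p = 0.238). No gene was called in either direction by edgeR among 17 of haem breakdown and iron handling (3 higher and 1 lower at an unadjusted p under 0.05), 13 chemokines and cytokines (3 and 1), 22 of the interferon response (0 and 1) or 21 of NF-kB and Toll-like receptor signalling (2 and 1). Ccl2, Il6 and Tnf were too low to be tested. The haemoglobin gene Hbb-bs had 94.9, 82.4 and 120 CPM in model and 72.2, 93.8 and 93.1 CPM in control libraries, which overlapped (adjusted p = 0.553). Nat10, the target of remodelin, averaged 17.4 ± 1.70 CPM in model and 17.9 ± 1.91 CPM in control libraries (SD, n = 3 each), a log2 fold change of -0.04 ± 0.12 (adjusted p = 0.902).

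**Figure D4:**
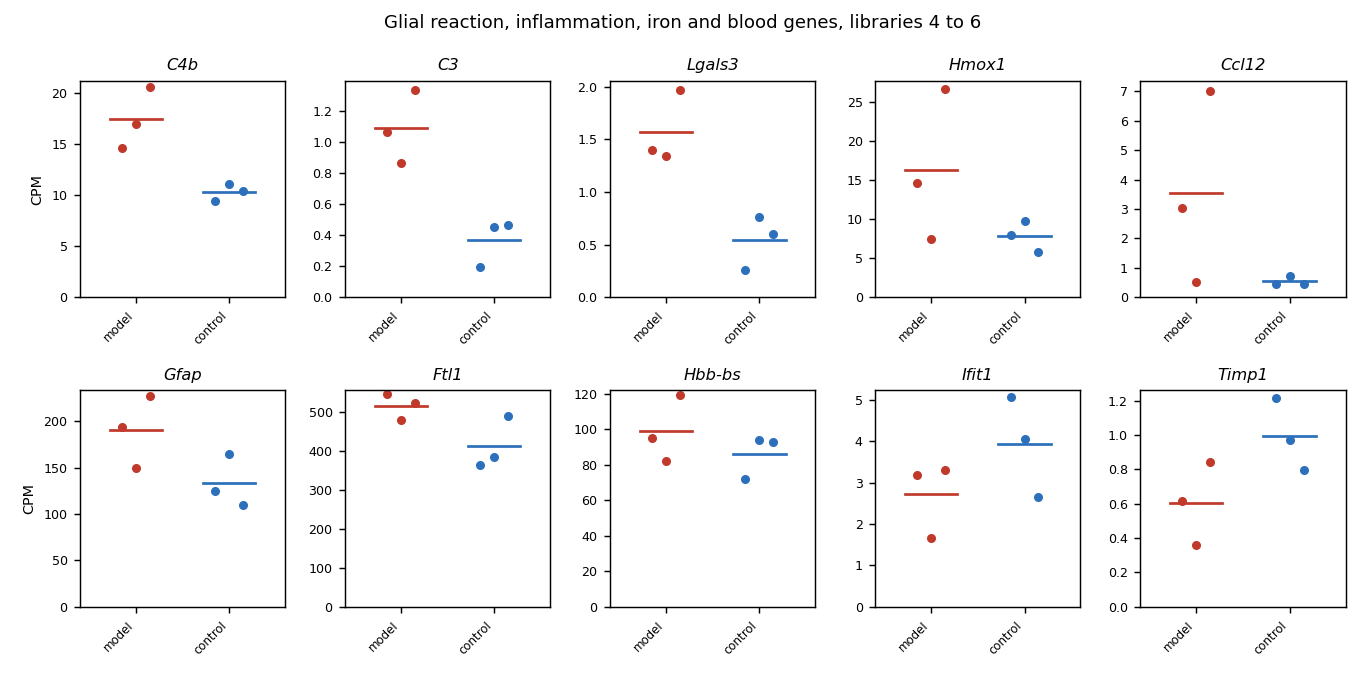
Level in CPM of 10 genes of glial reaction, inflammation, iron handling and blood in the 3 model and the 3 control libraries numbered 4 to 6, with group means as bars. C4b, C3 and Lgals3 have separate groups, Hmox1 and Ccl12 are high in 2 of the 3 model libraries, and Gfap, Ftl1, Hbb-bs, Ifit1 and Timp1 overlap.

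Whether these differences also departed from those in libraries 1 to 3 was tested as a change of the model minus control difference over the 12 model and control libraries, whose CPM scale is used from here on. By edgeR 10 of 19016 genes (0.0526%) were called, 7 (0.0368%) with a more positive and 3 (0.0158%) with a more negative difference in libraries 4 to 6. Among the 7 are Gal and Kcnj5, which earlier results had put forward and which are a description. For Nkx2-1 the log2 difference was 3.46 in libraries 4 to 6 and -1.64 in libraries 1 to 3 (adjusted p of the change = 0.0318): model and control averaged 4.36 ± 0.889 and 0.424 ± 0.359 CPM in libraries 4 to 6, and 3.10 ± 1.06 and 9.68 ± 4.45 CPM in libraries 1 to 3 (SD, n = 3 each). It was thus the control libraries 4 to 6 that stood apart from the other 9. Gstm6, a glutathione transferase, had the same order, at 9.95 ± 0.574 and 4.02 ± 0.375 CPM in model and control libraries 4 to 6, and at 14.03 ± 1.84 and 20.8 ± 6.02 CPM in libraries 1 to 3 (adjusted p of the change = 0.0260). Hkdc1, a hexokinase, had the opposite order, with 8.28 ± 1.04 and 15.1 ± 0.965 CPM in model and control libraries 4 to 6, and at 3.15 ± 1.26 and 0.875 ± 0.182 CPM in libraries 1 to 3 (adjusted p of the change = 0.0260). Enpp2, for autotaxin, which choroid plexus secretes, was at 200.3 ± 21.4 CPM in model and 224 ± 13.3 CPM in control libraries 4 to 6, and at 835 ± 96.7 CPM in model and 301 ± 72.2 CPM in control libraries 1 to 3 (adjusted p of the change = 0.0260).

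Oxt was at 134, 163 and 169 CPM in model libraries 1 to 3 and at 40.6, 344 and 70.2 CPM in control libraries 1 to 3, whose log2 difference was 0.04 against 8.03 in libraries 4 to 6 (edgeR adjusted p of the change = 0.0971). Ttr was higher in model in both ranges, by 7.08 in libraries 4 to 6 and by 4.03 in libraries 1 to 3 on the log2 scale, a change that was not called (adjusted p = 0.518). Of the 175 genes called higher in libraries 4 to 6, 48 had a positive model minus control difference in libraries 1 to 3, and 163 had a higher mean in control libraries 1 to 3 than in model libraries 4 to 6. Of the 84 genes called lower, 82 had a positive difference in libraries 1 to 3, and 8 a higher mean in control libraries 1 to 3 than in model libraries 4 to 6. Over all 19016 genes 9389 had a positive difference in libraries 1 to 3, and 9635 a higher mean in control libraries 1 to 3 than in model libraries 4 to 6. The calls of a changed difference fell to 0 without control 4, control 5, model 4 or model 5, to 1 without control 6 and to 2 without model 1, and rose to 196 without control 3.

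**Figure D5:**
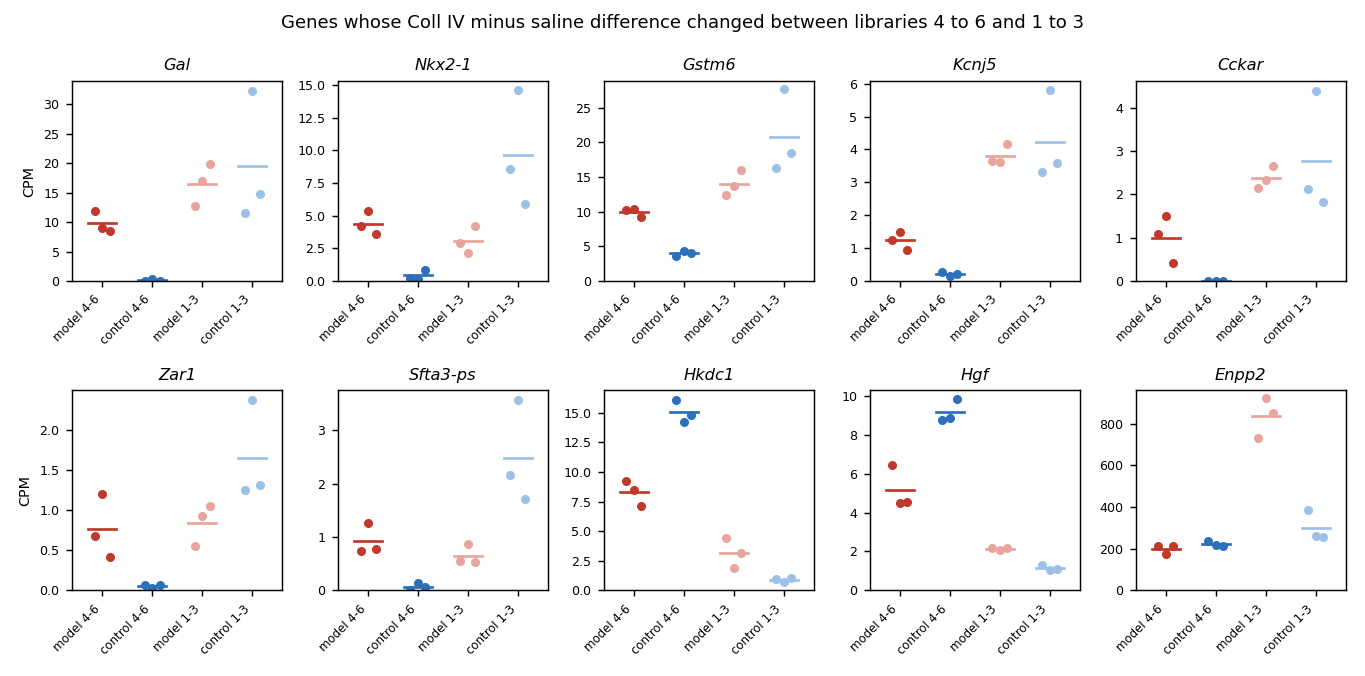
Level in CPM, on the scale of 12 libraries, of the 10 genes whose model minus control difference changed between libraries 4 to 6 and 1 to 3, for each library with group means as bars. Gal, Nkx2-1, Gstm6, Kcnj5, Cckar, Zar1 and Sfta3-ps are lowest in control libraries 4 to 6, whereas Hkdc1 and Hgf are highest there and Enpp2 is highest in model libraries 1 to 3.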

How the data were processed

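The authors deposited a table of gene counts and a table of FPKM for the same 50559 genes and 18 libraries of polyA RNA. The submitters' processing notes name HISAT2, featureCounts and GRCm39, and no version or strand setting was found in the labels. Genes with close copies or overlapping neighbours, such as C4b, Gstm6, Hbb-bs and Sfta3-ps, may share reads and are uncertain. Samples were grouped by the labels' treatment and numbered by their titles, which do not state separate animals, so a p-value covers no more than the variation from sample to sample, which may be technical.

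For libraries 4 to 6 the quasi-likelihood F test of edgeR 4.0.16 (R 4.3.3; robust, filterByExpr, TMM) was applied to the counts, with Benjamini-Hochberg adjustment over 17731 genes, a threshold of 0.05 and 4 residual degrees of freedom. The standard error is the log2 fold change over the square root of F, and CPM are TMM-scaled. The change between library ranges was tested on 12 libraries and 19016 genes. Alternatives used DESeq2 1.42.0, limma 3.58.1, log2 of FPKM plus 1 or 0.1, other scalings, other sets of libraries and a replicate block. The test was also run on simulated counts, drawn independently for each gene and library. These lack any spread that genes of a library share, so no error rate for the real libraries is drawn from them.

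Members, the 50 gene lists and the tests were chosen with earlier results of these data known. Names were those of lowest p or largest change with at least 1 CPM, the region checks, and up to 4 members per list by p. Other names were picked after their values were seen. A list is described by counts and its median, without a test. The floors cover counting error only, whereas the standard errors also cover the spread between libraries.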

Additional observations from a re-analysis of the deposited data

Results flagged for a closer look

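The difference between model and control libraries was not the same in libraries 4 to 6 as in libraries 1 to 3 for 10 of 19016 genes, by edgeR's test of the change in the difference over 12 libraries. The change on the log2 scale was positive for Gstm6 at 1.87, Sfta3-ps at 5.40, Nkx2-1 at 5.10, Zar1 at 4.76 and Cckar at 8.59, with adjusted p of 0.0260 to 0.0387. The value of Cckar depends on edgeR's prior count, since control libraries 4 to 6 hold no count of it. Gal at 5.86 and Kcnj5 at 2.80 were chosen from earlier results, so their values are a description. The change was negative for Enpp2 at -1.63, Hkdc1 at -2.70 and Hgf at -1.70, with adjusted p of 0.0260 to 0.0387. Each of the 10 kept its sign in every alternative, and the call of none held in all of them.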

How the results depend on the processing

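The number of genes called in libraries 4 to 6, 259 as reported, was 1189 without a filter on low counts (55.5% of them higher, against 67.6% as reported), 743 with DESeq2 (58.3% higher), 46 with the 9 libraries numbered 4 to 6 in the fit, 5 with the 12 model and control libraries, 0 with all 18 (1938 at an unadjusted p under 0.05), and 98 and 135 on log2 FPKM with 1 and 0.1 added (93.9 and 92.6% higher). Leaving out 1 library gave 47 to 714. Other scaling, limma-voom, leaving out mitochondrial genes, and thinning control 5 to the shallowest library, an alternative chosen after seeing the data, gave counts within 1.5 times of 259. All 259 genes kept their sign in each alternative, which groups without overlap in the same libraries all but fix in advance.

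The number of genes with a changed difference, 10 as reported, was 79 without the filter, 344 with DESeq2, 0 with all 18 libraries (2122 at an unadjusted p under 0.05) and 0 to 196 without 1 library.

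Libraries of the same number share only that number: the correlations of their deviations from the group means were 0.07, 0.13 and -0.05, and not every library correlated best with its own number. With the replicate block 351 genes were called in libraries 4 to 6, 223 of them among the 259, and 1 gene had a changed difference. With 3 libraries per group and 4 residual degrees of freedom, genes with wide spread such as Hmox1 can differ in size without a call. Genes with no count in control, such as Hmx3, are given as lower bounds, and fitted folds of genes with few control counts, such as Calcr and Otp, depend on the prior count.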

Other observations

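In libraries 4 to 6 all 22 cytosolic ribosomal protein genes had a positive log2 fold change of model over control, with a median of 0.21, and 4 had an unadjusted p under 0.05. Of 19 nuclear-encoded respiratory chain genes 18 were positive, with a median of 0.13, and of 13 mitochondrially encoded genes 10 were positive, with a median of 0.19. These 3 lists gave 0 calls by edgeR, near the 1.46% called over all genes, and the groups of every ribosomal gene overlapped. The mitochondrial share of counts, given above, was highest among controls in control 6, and its part in these values was not tested.

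Genes of vessels and of the meninges gave no call by edgeR either, which in short lists is near the 1.46% called over all genes. At an unadjusted p under 0.05, 7.99% of all genes tested were lower. Of 14 meningeal and perivascular fibroblast genes 2 had a positive log2 fold change (median -0.25, 3 lower at an unadjusted p under 0.05), and of 17 TGF-beta ligands, receptors and mediators 5 were positive (median -0.15, 3 lower). Of 19 blood-brain barrier endothelial genes 10 were positive, with a median of 0.01, and of 16 homeostatic microglia genes 9, with a median of 0.06. Myelin genes had 13 of 16 positive, with a median of 0.13, and a summed level of 9176 to 12994 CPM in model and 7686 to 8478 CPM in control libraries.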
